A study of Mus musculus with 6 samples.

Results

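The genes Tmem176a, Tmem176b, Il17a and Il23r, 4 of the 33696 features in the count tables, were followed through the immune cells of mouse mammary tumours. They were chosen by the level of Tmem176b, which had been seen to be higher in T cells under both labels that name a combination, so the Tmem176b values in T cells below are a description and support nothing. Live CD45+ cells had been sorted from the tumours and profiled by droplet single-cell RNA sequencing, and the series title names MERTK inhibition and cyclophosphamide in triple negative breast cancer. The 5 libraries used carry the treatment labels MRX, CTX, Combined, ctxd18t and combod18t, with 1 library for each label; the counts of a library labelled VC were not used here. The labels do not say which agent each abbreviation stands for, nor the strain, the age or the number of mice behind a library, and libraries go by their labels here. The labels' protocol describes treatment of day 7 mice 3 hours before harvest, and d18 in the names ctxd18t and combod18t is read here as day 18. With 1 library per label no difference has a replicate check and no test was run. Intervals are 95% intervals for counting error only, and do not cover the spread between mice or between cells, which matters most where a few cells hold the UMIs.

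IL-17A is the signature cytokine of type 17 lymphocytes, which include CD4 helper T cells, gamma-delta T cells and innate lymphoid cells. IL-23 from myeloid cells acts on such cells through a receptor with the chain encoded by Il23r, and IL-17A acts on epithelial, stromal and myeloid cells to induce neutrophil chemokines. Tmem176a and Tmem176b are neighbouring genes for related membrane proteins of the MS4A-like group, known from dendritic cells, macrophages and IL-17-producing lymphocytes.

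The starts of Tmem176a and Tmem176b lie close together and face away from each other, so the stretch between them is shown beside the 250 bases before the starts of Il17a and Il23r. All 4 members were found in RefSeq's promoter table (build GRCm38.p6, whereas the submitters' processing notes name GRCm39 for the counts), from which these sequences come. The stretch between the nearest starts of the Tmem176 genes is chr6:48841375-48841482 on the plus strand, the Il17a window is chr1:20730655-20730904 on the plus strand, and the Il23r window is chr6:67491856-67492105 on the minus strand. Each is written 5′ to 3′ on the strand given, in lower case, with no motif marked.
Tmem176a and Tmem176b: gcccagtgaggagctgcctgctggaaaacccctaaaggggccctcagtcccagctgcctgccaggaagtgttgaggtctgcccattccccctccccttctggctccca
Il17a: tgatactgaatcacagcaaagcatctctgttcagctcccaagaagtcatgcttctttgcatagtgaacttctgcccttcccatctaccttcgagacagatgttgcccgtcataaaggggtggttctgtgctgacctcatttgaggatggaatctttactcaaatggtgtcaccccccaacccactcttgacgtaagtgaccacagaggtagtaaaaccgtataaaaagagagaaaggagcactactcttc
Il23r: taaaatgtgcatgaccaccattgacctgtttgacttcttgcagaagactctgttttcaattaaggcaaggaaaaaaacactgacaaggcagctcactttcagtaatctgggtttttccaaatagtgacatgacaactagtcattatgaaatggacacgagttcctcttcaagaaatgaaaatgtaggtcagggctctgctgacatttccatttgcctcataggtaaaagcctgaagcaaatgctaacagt
The stretch between the Tmem176 starts is 108 bases long.

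After filtering, 25653 cells remained, from 3845 in ctxd18t to 8506 in CTX, with median depths of 6239 to 8940 UMIs per cell. T cells numbered 1888 for MRX, 1770 for CTX, 1006 for Combined, 1266 for ctxd18t and 2605 for combod18t. The ctxd18t library carries the multiplexing barcode set of Combined and combod18t that of CTX, while the protocol gives sets only for the other labels. Those pairs shared 21 and 34 cell barcodes and all other pairs shared 0. Whether the day 18 labels are crossed was not tested, and every day 18 direction below rests on the labels as deposited. Removing the cells with shared barcodes changed the direction of no log2 ratio it was run on.

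Most UMIs of the type 17 genes lay in a pair of small T cell clusters. Cluster L17 (140 cells) was gamma-delta T-like: 88.6% of its cells had a UMI of Trdc, the constant segment of the delta chain, and 97.1% one of Cd3e, a chain of the T cell receptor complex. Cluster L14 (177 cells) was conventional CD4 T-like, with Cd4 in 81.9% and Trdc in 4.52% of cells. The other gamma-delta T-like cluster, L15 (177 cells), led by the killer lectin gene Klra5, had Cd3e in 94.4% and Trdc in 53.7% of cells. Trac, the constant segment of the alpha chain, was seen in 62.7% of L15 and 63.6% of L17 cells, against 95.5% in L14. Trdc alone does not set L15 apart, since 57.4% of NK-like cells had a UMI of it, and 22.0% of L15 cells had one of the NK receptor gene Ncr1, so its gamma-delta name, which rests also on the gamma chain genes Trgc1, Trgc2 and Trgc4 among its leading genes, is less certain than that of L17. The 4 genes and their pathway lists were left out of the genes used for clustering, yet Il17a, Tmem176a and Tmem176b stood among the 10 leading genes of both L14 and L17, which describes the clusters and is no test.

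Il17a was the most concentrated member. Of its 1404 UMIs in 149 cells, L17 held 1021 (72.7%) in 73 cells and L14 held 321 (22.9%) in 54 cells. No Il17a UMI was found in L15, NK-like cells, B-like cells or cluster L20, a small group of innate lymphoid cells described below. In L17, Il17a stood at 775 CPM (UMIs of the gene per 1000000 UMIs of the class; interval 670 to 891) for MRX, 315 (144 to 598) for CTX, 929 (805 to 1066) for Combined, 840 (662 to 1051) for ctxd18t and 807 (740 to 878) for combod18t. The CTX value came from 1 of 4 cells and the ctxd18t value from 3 of 8, so only MRX, Combined and combod18t, with 16 to 33 Il17a-positive cells, can be set side by side, and their intervals overlap. In L14, Il17a stood at 175 CPM for MRX, 316 for CTX, 83.4 for Combined, 476 for ctxd18t and 343 for combod18t. Every L14 value except that of CTX lay below the L17 value of its library. Outside these clusters and a pair of unnamed T cell clusters (L11 and L12), no class of cells exceeded 3.90 CPM, the level in the regulatory T-like cells of Combined, which came from 1 cell. In B-like cells, which should lack the gene, 0 UMIs were counted in each library.

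Il23r, the receptor gene, followed the same clusters with a wider reach. L17 held 1117 of its 1586 UMIs (70.4%), L14 held 14.9%, the alpha-beta T-like cells outside L14 held 4.16% and L20 held 4.29%. Its level in L17 was 625 CPM (531 to 730) for MRX, 946 (623 to 1376) for CTX, 795 (680 to 923) for Combined, 1282 (1059 to 1538) for ctxd18t and 964 (891 to 1041) for combod18t, and 75% to 100% of L17 cells had a UMI. The ctxd18t library was highest and MRX lowest, while the CTX interval, from 4 cells, spans the values of the 4 others. In L14 the levels were 145 CPM for MRX, 256 for CTX, 167 for Combined, 183 for ctxd18t and 187 for combod18t, each below the L17 level of the same library. Macrophage-like and monocyte-like cells reached at most 0.895 CPM of Il23r, and migratory dendritic-like cells, which make the IL-23 partner subunit encoded by Il12b, had 17 UMIs in 6 of 91 cells. In B-like cells the only Il23r UMIs were 4, in 1 cell of combod18t.

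Cells with UMIs of both Il17a and Il23r numbered 106, of which 69 were in L17, 32 in L14 and 95 had a Tmem176b UMI too. They numbered 26 for MRX, 8 for CTX, 26 for Combined, 9 for ctxd18t and 37 for combod18t. Within L17 a Tmem176b UMI was seen in 94.5% (86.6% to 98.5%) of 73 cells with Il17a and in 89.6% (79.7% to 95.7%) of 67 cells without. At 1000 UMIs per cell these shares were 48.5% and 44.9%. L14 gave 85.2% of 54 cells and 83.7% of 123. Tmem176b thus marked the cells of both clusters whether or not Il17a was caught, with overlapping intervals. Of the 60 alpha-beta T-like cells with Il17a, 54 were in L14. Outside L14, Tmem176b was seen in 3 of the 6 cells with Il17a (50%; 11.8% to 88.2%) and in 2.91% (2.54% to 3.31%) of 7495 without.

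Tmem176b was a broad gene, most of whose UMIs were myeloid. Of 39215 UMIs, monocyte-like cells held 39.2%, macrophage-like cells 21.6%, epithelial-like cells 7.43%, cDC2-like cells 3.13%, L17 2.34%, migratory dendritic-like cells 2.06% and L14 1.34%, and 19.8% lay in clusters left without a name. By level, the classes fell into a high and a low set with no overlap between them. The high set held L17 (464 to 771 CPM over the libraries), migratory dendritic-like (404 to 856), epithelial-like (423 to 1251), L14 (252 to 495), macrophage-like (267 to 584), monocyte-like (137 to 486), cDC2-like (128 to 611) and L20 (106 to 477) cells. In the low set, neutrophil-like cells reached 59.0 CPM, plasmacytoid dendritic-like 58.6, conventional CD4 T-like outside L14 38.4, NK-like 26.3, cDC1-like 15.8, alpha-beta T-like outside L14 15.3, L15 11.9 and B-like 3.61. Neighbours within the high set overlapped in their ranges. The unnamed T cell cluster L12, led by macrophage genes, spanned the gap between the sets, at 43.2 to 123 CPM. Epithelial-like cells, which a CD45 sort should remove, numbered 3 to 131 in a library.

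Tmem176a had the same division, with 36.6% of its UMIs in monocyte-like and 23.0% in macrophage-like cells. Its L17 level was 530 CPM for MRX, 490 for CTX, 601 for Combined, 287 for ctxd18t and 570 for combod18t. Over 54 sums of a class in a library (13 classes, each of at least 50 cells, or 20 for L15, L17 and L20), the log2 levels of Tmem176a and Tmem176b correlated at 0.98 by Pearson's r and 0.96 by Spearman's rho, over points that share libraries and depth. The number of Tmem176a UMIs per Tmem176b UMI was 0.948 to 1.14 in L14, 0.619 to 1.00 in L17, 0.606 to 0.737 in monocyte-macrophage-like cells and 0.337 to 0.512 in epithelial-like cells, and other classes overlapped the L14 range, with 0.55 to 1.08 in migratory dendritic-like and 0.695 to 1.33 in cDC2-like cells.

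**Figure D1:**
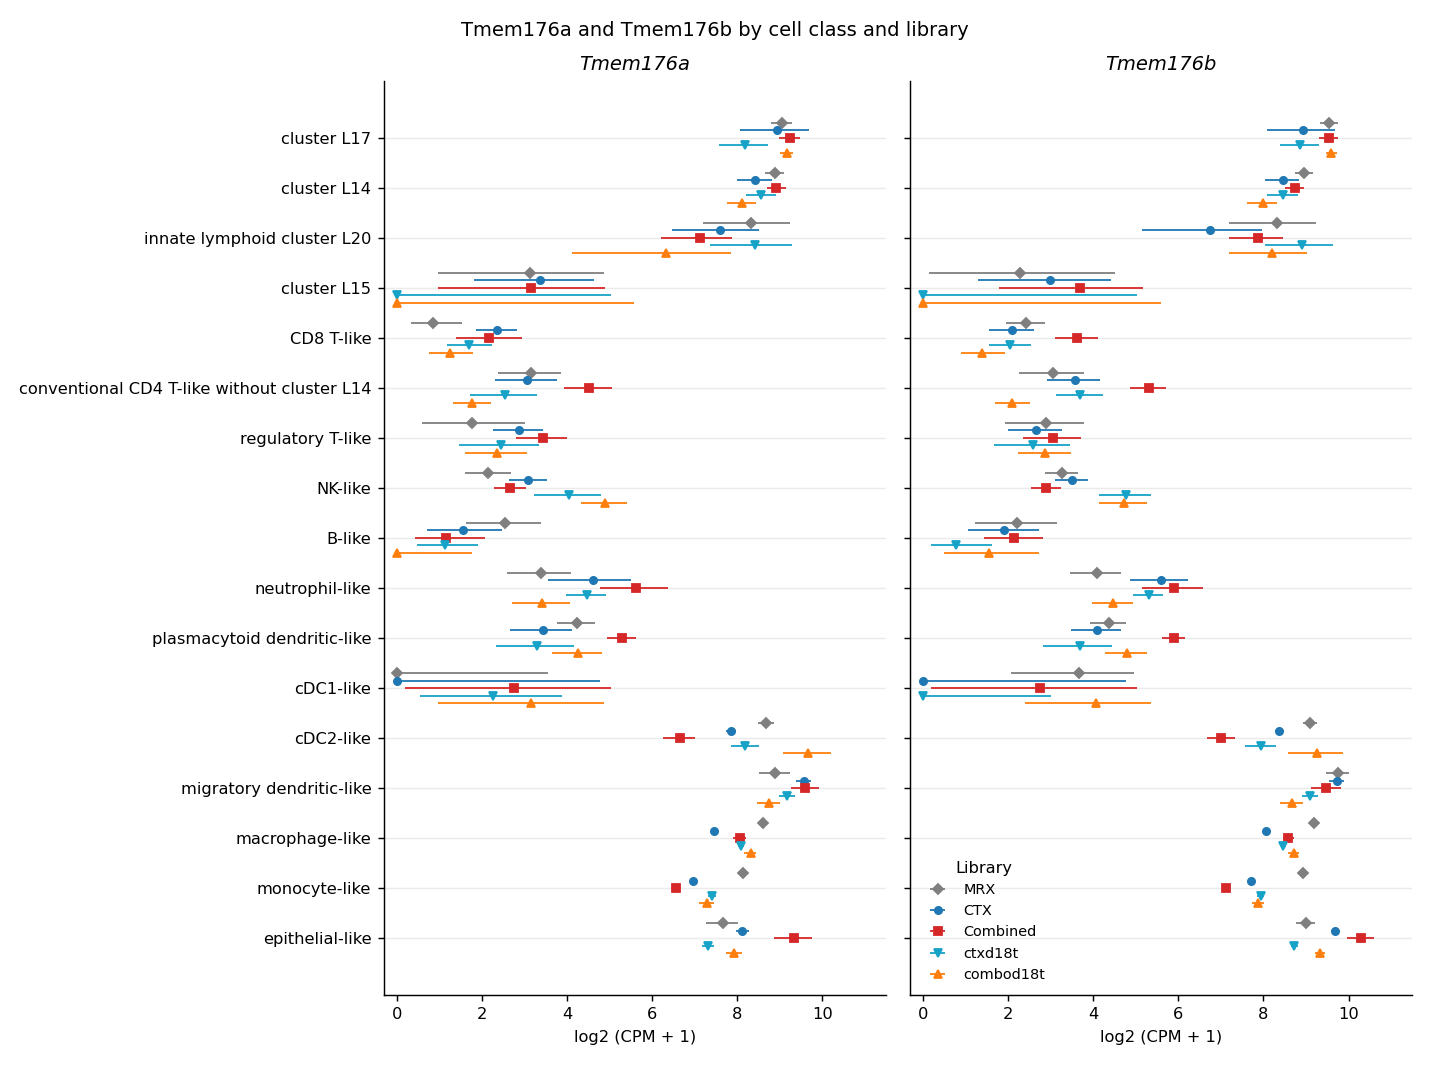
Tmem176a (left) and Tmem176b (right) as log2 (CPM + 1) in 17 classes of cells; each point is 1 library and each bar its 95% Poisson interval. L17, L14, L20, cDC2-like, migratory dendritic-like, macrophage-like, monocyte-like and epithelial-like cells form the high set, and CTX and Combined lie below MRX in the monocyte-like rows.

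**Figure D2:**
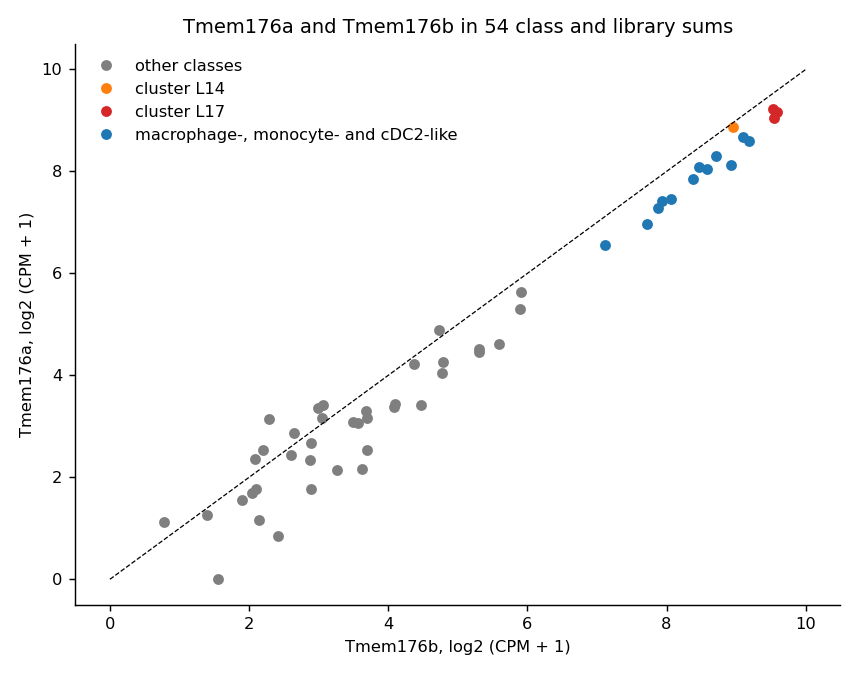
Tmem176a against Tmem176b, both as log2 (CPM + 1), in 54 sums of a class in a library; colours mark L17, L14 and the myeloid classes, and the dashed line marks equal CPM. The myeloid points lie below the line and the L14 point lies near it.

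Among all other genes with at least 50 CPM in 1 of the 54 sums, the closest to Tmem176b after Tmem176a were Cysltr1, a leukotriene receptor gene (Pearson 0.91), Sh3pxd2b (0.88), Niban2 (0.87) and Emp1 (0.86). Among those closest to Il17a were Prr29 (0.97), Cdh10 (0.97), Il17f, which encodes the closest relative of IL-17A (0.95), and Il17re, a receptor gene for IL-17C (0.93). Their Spearman correlations with Il17a were lower, at 0.35 to 0.59. Il17a stood at 175 CPM or more in the L17 sums of MRX, Combined and combod18t and the L14 sum of MRX. In every other sum it was at or below 3.90 CPM, so its Pearson values rest on those few sums.

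The pathway genes split L17 from L14. The cytokine gene Il17f reached 154 CPM in L17 and 376 CPM in L14 over all libraries, and 29.3% and 48.6% of cells had a UMI. Blk, a kinase gene of IL-17-producing gamma-delta T cells, stood at 593 CPM in L17 and 2.24 in L14, and Sox13, a transcription factor gene of the same lineage, at 48.5 and 0 CPM. Il1r1, the IL-1 receptor, stood at 580 and 155 CPM, and Zbtb16, which encodes PLZF, at 461 and 11.95 CPM. The chemokine receptor gene Ccr6 went the other way, at 40.6 CPM in L17 and 128 in L14. The cytokine gene Il22 was sparse, at 9.55 and 11.95 CPM.

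Cluster L20 held 33 cells, 14 of them in Combined and 3 to 8 in each other library. Cd3e had no UMI there, 97.0% of cells had Kit and 78.8% Ncr1, receptor genes of innate lymphocytes. Il17a had no UMI, whereas Tmem176b was seen in 63.6% and Tmem176a in 54.5% of cells. Il23r was seen in 7 cells with 68 UMIs, 52 of them in 2 of the 3 cells of ctxd18t. The cluster is described over all libraries, since 3 to 14 cells a library carry no comparison.

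The share of T cells in these clusters differed between libraries. L17 made up 1.85% of T cells for MRX (1.29% to 2.57%), 0.226% for CTX (0.0616% to 0.578%), 3.08% for Combined (2.10% to 4.35%), 0.632% for ctxd18t (0.273% to 1.24%) and 2.38% for combod18t (1.83% to 3.04%). CTX and ctxd18t were thus lowest, with intervals below those of the other 3. L14 made up 3.23% for MRX (2.48% to 4.13%), 1.3% for CTX (0.825% to 1.94%), 4.67% for Combined (3.45% to 6.16%), 1.58% for ctxd18t (0.968% to 2.43%) and 0.998% for combod18t (0.653% to 1.46%). Here combod18t stood with CTX and ctxd18t, below Combined and MRX. These orders depend on the denominator, since T cells were 2605 of 3858 kept cells in combod18t and 1770 of 8506 in CTX. Over all kept cells L14 made up 1.18%, 0.270%, 1.10%, 0.520% and 0.674% in the same order of libraries. The combod18t interval (0.441% to 0.986%) then overlapped those of Combined and MRX. L17 made up 0.677%, 0.0470%, 0.725%, 0.208% and 1.61% of all kept cells, highest in combod18t. L15 made up 2.49%, 3.84%, 3.48%, 1.18% and 0.461% of T cells in the same order, so its lowest share was in combod18t, where L17 outnumbered it 62 cells to 12. Over all T cells a Tmem176b UMI was seen in 7.84% of cells for MRX, 4.63% for CTX, 12.8% for Combined, 6.16% for ctxd18t and 5.83% for combod18t. At 1000 UMIs per cell these shares were 2.77%, 1.08%, 3.82%, 1.45% and 1.90%, and the day 18 libraries changed places, so no order is read between them. T cells here are all lymphoid clusters other than NK-like, L20 and B-like cells, and so include the unnamed L12, whose macrophage list summed to 2112 to 4377 CPM. Of the Tmem176b-positive T cells, L12 held 16 of 148 in MRX, 13 of 82 in CTX, 7 of 129 in Combined, 9 of 78 in ctxd18t and 20 of 152 in combod18t. Il17a was seen in 2.07%, 0.734%, 2.78%, 1.11% and 1.65% of T cells in the same order. All cells had been sorted for CD45, and the shares are of cells captured, not of cells per tumour.

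**Figure D3:**
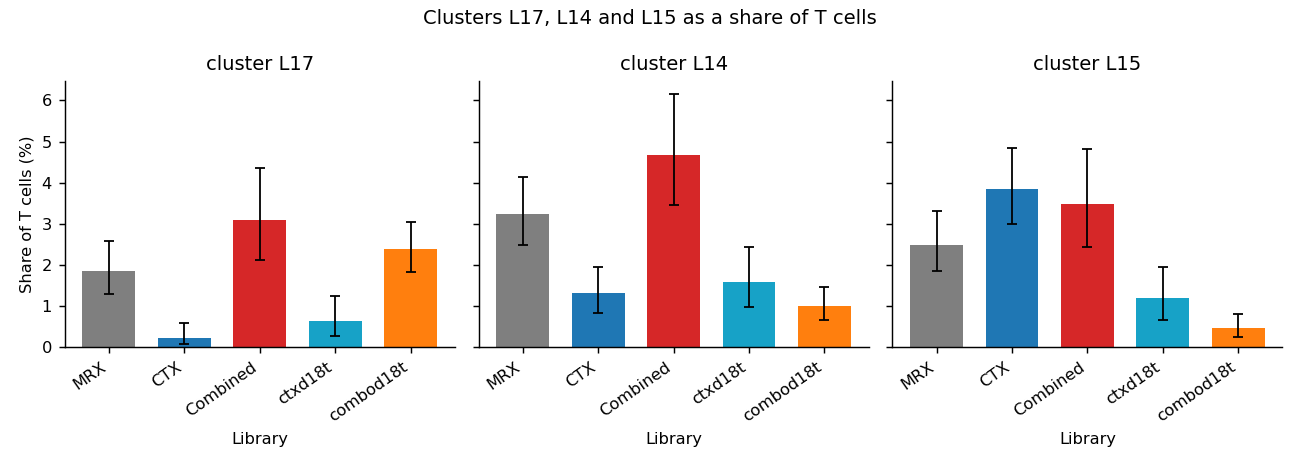
Share of T cells (percent) in clusters L17, L14 and L15 in each library, with 95% Clopper-Pearson intervals. L17 is lowest in CTX and ctxd18t, while L14 is highest in Combined and MRX.

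In gamma-delta T-like cells (L15 and L17 together) the members were higher in Combined than in CTX. Tmem176b stood at 371 CPM (320 to 428) for MRX, 37.1 (21.6 to 59.3) for CTX, 348 (297 to 406) for Combined, 203 (147 to 275) for ctxd18t and 689.5 (631 to 752) for combod18t. Il17a stood at 385 CPM for MRX, 19.6 for CTX, 430 for Combined, 368 for ctxd18t and 722 for combod18t. CTX was the lowest library for both and combod18t the highest. Combined against CTX, the log2 ratio of CPM + 1 was 3.20 (2.51 to 4.05) for Tmem176b, 2.81 (2.13 to 3.64) for Tmem176a, 4.38 (3.50 to 5.60) for Il17a and 2.62 (2.05 to 3.29) for Il23r. Of the 1837 genes measured in that class, that is with at least 100 UMIs over both libraries and 50 CPM in 1 or more, 4.84% were higher by 1 or more. The 4 genes were chosen because Tmem176b was higher in T cells under the combination labels, and Tmem176b, Tmem176a and Il17a were below 50 CPM in CTX and so counted as measured only through Combined. Nothing is therefore read from how many of the 4 exceeded 1. For combod18t against ctxd18t the ratios were 1.76 (1.31 to 2.25), 2.01 (1.44 to 2.65), 0.97 (0.62 to 1.34) and 0.62 (0.33 to 0.92), beside 6.63% of 2127 genes higher by 1 or more. In the other direction 1.85% of genes in the first pair and 3.01% in the second were lower by 1 or more.

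Different clusters made up the gamma-delta class in these libraries. L17 gave 4 of 72 cells in CTX, 31 of 66 in Combined, 8 of 23 in ctxd18t and 62 of 74 in combod18t. Within L17 alone, Combined against CTX, Tmem176b gave 0.59 (-0.20 to 1.5), Tmem176a 0.29 (-0.51 to 1.20), Il17a 1.56 (0.61 to 2.71) and Il23r -0.25 (-0.84 to 0.39), all resting on 4 CTX cells. For combod18t against ctxd18t within L17 they were 0.73 (0.28 to 1.22), 0.99 (0.41 to 1.62), -0.06 (-0.41 to 0.31) and -0.41 (-0.70 to -0.11). The ctxd18t Il17a value rests on 3 positive cells, so no comparison of Il17a is read within L17 at day 18. Il23r was lower in combod18t, while L17 made up more of the class there. In L15 no library had more than 4 UMIs of either Tmem176 gene, and none had Il17a or Il23r.

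Against MRX, CTX was lower in gamma-delta T-like cells for all 4 members, at -3.29 (-4.13 to -2.61) for Tmem176b, -2.74 for Tmem176a, -4.23 for Il17a and -2.38 for Il23r. Of all measured genes 3.59% were at or beyond -1 and 2.7% were higher by 1, and the first 3 of these members counted as measured only through MRX. L17 was 35 of the 82 cells of the class in MRX and 4 of the 72 in CTX. Within L17 the same comparison gave -0.60 (-1.5 to 0.18) for Tmem176b, -0.11 (-1.02 to 0.69) for Tmem176a, -1.29 (-2.45 to -0.34) for Il17a and 0.60 (-0.05 to 1.19) for Il23r, so only the Il17a interval lay below 0 there, from 1 positive CTX cell. Combined lay close to MRX, with -0.09 (-0.40 to 0.22) for Tmem176b, 0.08 for Tmem176a, 0.16 for Il17a and 0.24 for Il23r. No member reached 1 there, against 1.8% of genes higher and 1.34% lower. These comparisons share libraries with those above.

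Of the pathway lists, in Combined against CTX, 3 of 6 measured transcription factor and lineage genes in gamma-delta T-like cells exceeded 1, beside 4.84% of all measured genes: Blk (3.51; 259 against 21.8 CPM), Zbtb16 (1.40) and Rora (1.33), a nuclear receptor gene. The median of the 6 was 1.11, beside 0.00 over all measured genes. Il1r1 (2.25; 190 against 39.2 CPM) was 1 of 4 measured receptor and signalling genes. Blk and Il1r1 were below 50 CPM in CTX and counted as measured only through Combined, so nothing is read from these counts and this median. At day 18, Blk (1.59), Hif1a (1.07) and Il1r1 (1.18) exceeded 1, beside 6.63% of all measured genes, and Ms4a4b, of the MS4A family, was lower at -1.40, beside 3.01%. Blk and Il1r1 stood at 0.883 and 0 CPM in L15, far below their L17 levels. Within L17 at day 18, Blk gave 0.60, Il1r1 0.15, Hif1a 0.43 and Ms4a4b -0.21, and of the listed genes only Nfkbiz, an NF-kappa-B cofactor gene, passed 1 in size, at -1.22 (223 against 519 CPM).

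Alpha-beta T-like cells carried far less of each member, and none of the 4 passed the filter of at least 100 UMIs and 50 CPM, so they are absent from the background shares given here. Tmem176b stood at 25.2 CPM (22.1 to 28.6) for MRX, 9.82 (8.04 to 11.9) for CTX, 39.4 (34.6 to 44.7) for Combined, 11.1 (9.16 to 13.3) for ctxd18t and 6.29 (5.24 to 7.49) for combod18t. Combined was highest and combod18t lowest. The log2 ratio was 1.90 (1.67 to 2.35) for Combined against CTX and -0.73 (-1.19 to -0.44) for combod18t against ctxd18t, so a higher level under a combination label held for alpha-beta T-like cells in the first pair only. In the first pair 0.0262% of 3813 measured genes were higher by 1 or more and 0.0787% lower, and in the second 1.82% of 4077 were higher and 2.55% lower. Tmem176a gave 1.81 (1.57 to 2.26) and -0.62 (-1.11 to -0.31), Il17a gave 0.22 (-0.37 to 0.88) and -0.76 (-1.33 to -0.45), and Il23r gave 1.32 (0.97 to 2.01) and -0.21 (-0.89 to 0.36). Against MRX, Tmem176b in alpha-beta T-like cells was lower in CTX, at -1.28 (-1.71 to -1.03), and higher in Combined, at 0.62 (0.38 to 0.91). Without cluster L14 these became -0.02 (-0.62 to 0.57) and 1.40 (1.04 to 2.11), so the Tmem176b difference of CTX from MRX was not detectable outside L14. Tmem176a was lower in CTX than in MRX over the whole class, at 9.91 against 21.4 CPM. Outside L14 it was higher in CTX, at 5.26 CPM (3.97 to 6.83) against 2.31 (1.43 to 3.53) in MRX. Of all measured genes 1.35% were higher and 0.397% lower by 1 in CTX, and 1.49% higher and 0.719% lower in Combined. The make-up of the class differed too: cluster L1, a CD4 T cell cluster led by St8sia6, held 1161 of the 2460 cells in combod18t and 77 of the 1155 in ctxd18t. Of 8 measured transcription factor and lineage genes none passed 1 in the first pair, and 2 were lower in the second, Batf (-1.29; 52.2 against 129 CPM) and Ahr (-1.18; 37.9 against 87.0 CPM), both genes of factors used by type 17 cells. The median of the 8 was 0.24 in the first pair and -0.49 in the second, beside 0.07 and -0.02 over all measured genes. Ahr was below 50 CPM in combod18t and counted as measured only through ctxd18t, so nothing is read from the second count and median.

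Without L14 the Tmem176b levels in alpha-beta T-like cells were 5.17 CPM for MRX, 5.07 for CTX, 15.3 (12.3 to 18.8) for Combined, 5.2 for ctxd18t and 3.03 for combod18t. Combined was again the highest, with a log2 ratio to CTX of 1.42 (1.09 to 2.11), and combod18t against ctxd18t gave -0.62 (-1.33 to -0.22). The Combined value was largest in conventional CD4 T-like cells outside L14, at 38.4 CPM against 10.8 in CTX, and lower in CD8 T-like cells (11.3 against 3.24) and regulatory T-like cells (7.32 against 5.28). The share of cells with a Tmem176b UMI was 6.32% in Combined and 2.81% in CTX, beside 1.59% and 1.25% in B-like cells, at median depths of 5304, 5306.5, 4363.5 and 3978 UMIs per cell. Macrophage markers were present in these cells as well: all 8 of the list had UMIs, summing to 109 CPM for MRX, 107 for CTX, 115 for Combined, 65.2 for ctxd18t and 44.4 for combod18t, against 14038 to 19736 CPM in macrophage-like cells. Of the Tmem176b-positive cells outside L14, 47.1% in Combined and 63.4% in CTX had a macrophage-list UMI, against 39.4% and 40.5% of the negative cells. In MRX the shares were 48.8% of positive and 30.2% of negative cells, in ctxd18t 48.6% and 23.8%, and in combod18t 30.6% and 18.9%. A list of 7 monocyte markers, of which some T cells also express Ly6c2, Plac8 and Ccr2, summed to 630 CPM for MRX, 687 for CTX, 668 for Combined, 366 for ctxd18t and 202 for combod18t, with Vcan at 0 in Combined, against 5981 to 7019 CPM in monocyte-like cells. It had a UMI in 76.5% of the positive and 62.7% of the negative cells of Combined, and in 75.6% and 62.6% in CTX. The order was the other way in MRX, at 46.5% of positive and 66.3% of negative cells. In ctxd18t the shares were 56.8% and 54.4%, and in combod18t 46.9% and 34.3%. In the conventional CD4 T-like cells outside L14, the monocyte list was highest in Combined as Tmem176b was, at 214 CPM against 100 in MRX, 116 in CTX, 70.6 in ctxd18t and 33.9 in combod18t, with Vcan, F13a1 and Fn1 at 0 in Combined. There 10 of 18 Tmem176b-positive cells of Combined (55.6%) and 27.5% of the negative cells had a UMI of that list. The part of such RNA in the low Tmem176b values was not tested. Il23r was also highest in Combined in the conventional CD4 T-like cells outside L14, at 20.1 CPM (12.7 to 30.1). Its 23 UMIs there lay in 6 of 229 cells. Il23r stood at 5.69 CPM in CTX and at 0 in MRX, ctxd18t and combod18t. Il17a stood at 0 CPM in these cells of Combined. Whether cells like those of L14 remained in this class was not tested. In L17 the macrophage list summed to 10.5 to 210 CPM with 3 to 6 of its 8 genes at 0, among them Mrc1 in 4 libraries. The monocyte list summed there to 458 CPM for MRX, 280 for CTX, 457 for Combined, 873 for ctxd18t and 634 for combod18t, with Fn1 and Chil3 at 0 in all 5, and 66.7% to 100% of the Tmem176b-positive cells had a UMI of it. In L14 the macrophage list summed to 45.8 to 200.2 CPM, with Mrc1 at 0 in all 5, and the monocyte list to 196 to 448 CPM. The part of these lists in the L14 and L17 levels was not tested.

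**Figure D4:**
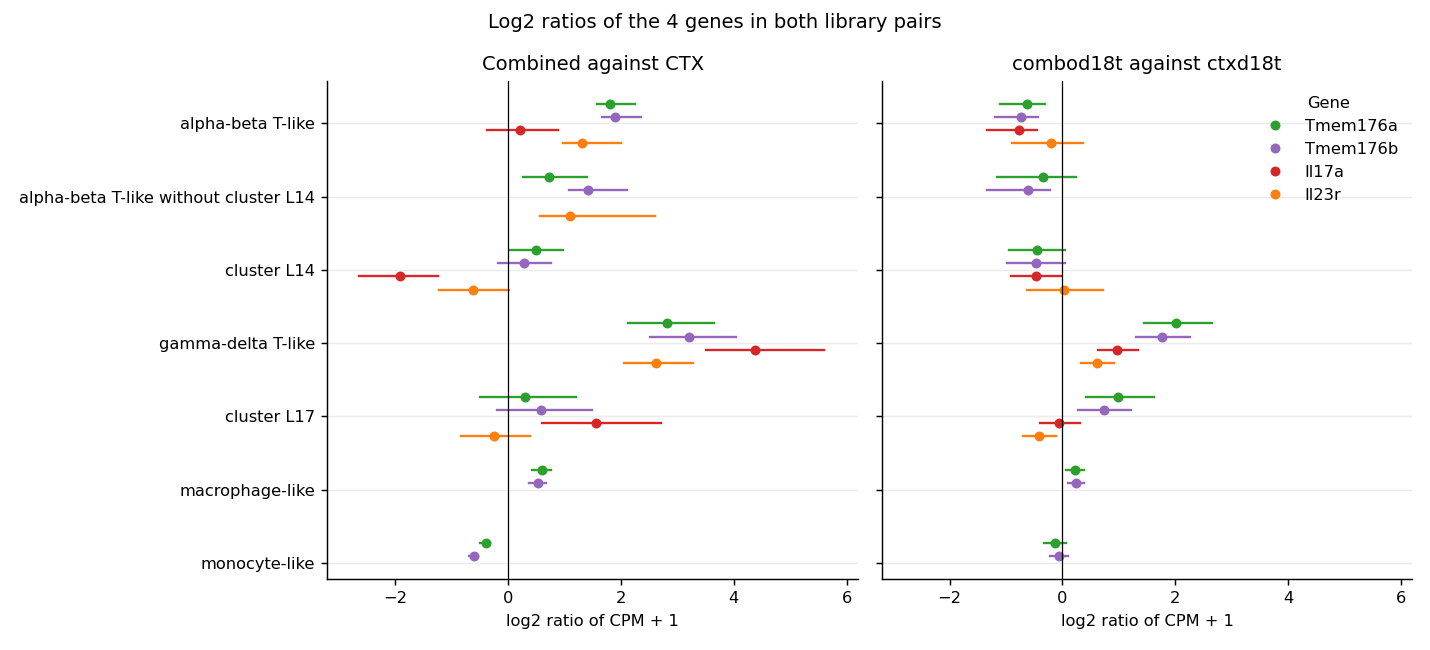
Log2 ratios of CPM + 1 for the 4 genes in 7 classes of cells, Combined against CTX (left) and combod18t against ctxd18t (right); points are the ratios and lines their 95% counting intervals, and values with fewer than 20 UMIs in both libraries are not drawn. In gamma-delta T-like cells all 4 genes lie above 0 in both pairs, whereas the Tmem176 genes in alpha-beta T-like cells lie above 0 in the first pair and below it in the second.

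Within L14 the Tmem176b ratios were smaller and their intervals spanned 0. Tmem176b stood at 495 CPM for MRX, 350 for CTX, 425 for Combined, 349 for ctxd18t and 252 for combod18t, giving 0.28 (-0.18 to 0.76) for Combined against CTX and -0.47 (-0.99 to 0.05) at day 18. Its Il17a was lower in Combined than in CTX, at -1.91 (-2.64 to -1.23) from 11 and 8 positive cells. Il17f in L14 was 367 CPM in Combined and 613 in CTX.

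Myeloid cells carried the Tmem176 genes with a different order of libraries. In monocyte-macrophage-like cells Tmem176b stood at 526 CPM for MRX, 221 for CTX, 158 for Combined, 296 for ctxd18t and 312 for combod18t. Tmem176a stood at 325, 134, 108, 219 and 224 CPM in the same order. MRX was highest for both, and Combined was lowest, the reverse of its place among alpha-beta T-like cells. Combined against CTX gave -0.48 (-0.55 to -0.42) for Tmem176b and -0.31 (-0.39 to -0.23) for Tmem176a, neither at 1, where 0.0845% of 3549 measured genes were higher and 0.31% lower by as much. At day 18 they gave 0.07 (-0.03 to 0.18) and 0.04 (-0.09 to 0.16), beside 0.302% of 3977 genes higher and 1.16% lower by 1. Against MRX both genes were lower by 1 or more, at -1.25 and -1.27 in CTX and -1.73 and -1.58 in Combined. The background was 1.19% of genes lower and 2.2% higher in CTX, and 2.92% lower and 3.36% higher in Combined. These libraries draw on different monocyte clusters: the one led by Ly6i and Cxcl9 held 2363 of 3415 monocyte-like cells in CTX and 721 of 1058 in Combined, but 100 of 808 in MRX, 47 of 405 in ctxd18t and 14 of 123 in combod18t. The one led by Vcan held 550, 236, 592, 276 and 95 cells in that order of libraries. The part of this make-up in the ratios was not tested.

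Macrophage-like and monocyte-like cells differed in direction for Combined against CTX. Tmem176b in macrophage-like cells stood at 584 CPM for MRX, 267 for CTX, 383 for Combined, 352 for ctxd18t and 417 for combod18t, so Combined lay above CTX at 0.52 (0.38 to 0.67). In monocyte-like cells it stood at 486, 210, 137, 243 and 234 CPM, and Combined lay below CTX at -0.61 (-0.69 to -0.54). The make-up of the joint class differed: macrophage-like cells were 857 of 4272 in CTX, 110 of 1168 in Combined and 571 of 1379 in MRX. The day 18 ratios were 0.24 (0.10 to 0.38) and -0.06 (-0.22 to 0.10). The cDC2-like cells had 548 CPM in MRX, 331 in CTX, 128 in Combined and 246 in ctxd18t, with -1.37 (-1.73 to -1.04) for Combined against CTX, and combod18t held only 5 such cells. No share over all genes is given for this class. Its make-up differed too: the cluster led by Cxcl11 held 76 of 169 cells in CTX, 25 of 42 in Combined and 18 of 53 in MRX. The one led by AY761185 held 41, 8 and 28 in that order. The part of this make-up in the cDC2-like ratio was not tested. Il17a and Il23r were at or near 0 in macrophage-like, monocyte-like and cDC2-like cells of all libraries.

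Genes that supply or answer the type 17 pathway were measured in myeloid cells. Il23a, the specific subunit of IL-23, reached 54.7 CPM in neutrophil-like cells over all libraries and at most 0.149 CPM in the other classes compared. In neutrophil-like cells it was higher in combod18t (114 CPM) than in ctxd18t (33.2), a log2 ratio of 1.74 (1.34 to 2.23), where 1% of 3001 measured genes were higher by 1, although Il23a counted as measured only through combod18t. Il12b, the shared subunit, reached 1665 CPM in migratory dendritic-like cells. Of 5 measured IL-17 target genes in neutrophil-like cells, Cxcl1, a neutrophil chemokine gene, was higher in Combined than in CTX (1.53; 479 against 165 CPM; 2.49% of 1163 genes), and none was lower by 1. Of 4 measured MS4A family genes 2 were lower there, Ms4a4c (-1.31) and Ms4a6b (-1.14), where 4.13% of genes were, and Ms4a4a, measured only through ctxd18t, was lower at day 18 (-1.20; 0.866% of genes). In monocyte-macrophage-like cells, 1 of 3 measured targets passed 1, S100a8, a calprotectin gene, at -1.07 for Combined against CTX, where 0.31% of all measured genes were lower by 1; it counted as measured only through CTX. Of 6 measured MS4A family genes in those cells 1 was lower by 1, Ms4a7, at -1.69 (69.9 against 228 CPM), whereas the other family members did not reach 1. Ms4a7 is a leading gene of the macrophage-like cluster, whose share of these cells was lower in Combined than in CTX as given above, and the part of that difference was not tested.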

How the data were processed

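Droplet single-cell RNA sequencing libraries of sorted CD45+ cells from mouse mammary tumours were read as deposited by the authors, as counts of UMIs per gene and cell. Cell Ranger 9.0.1 made them, per the labels' protocols, and the submitters' processing notes name Seurat 5.2.0 and GRCm39. Of 6 libraries 5 were used. Cells with at least 200 genes and at most 15% mitochondrial UMIs were kept. Scrublet's own threshold marked at most 0.134% of cells and was not used; cells above the top 5% of its scores were removed instead, ties kept (3.98% to 4.94% of cells). Cells were clustered with scanpy 1.11.5 (2000 variable genes, 30 components, 15 neighbours, Leiden resolution 1), lymphoid cells in a separate round, leaving out the 4 genes, the pathway lists and all Ms4a genes. Clusters were named from fixed marker lists. The members and lists were chosen with earlier results of these data known, and the rules for mixed clusters (a score ratio of 0.4), for innate cells without Cd3e and for clusters L11, L12 and L20, like the emphasis on L14, L15 and L17, were set after the data were seen.

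UMIs were summed per class and library. CPM have exact Poisson intervals, shares Clopper-Pearson intervals and log2 ratios of CPM + 1 exact conditional binomial intervals computed without the pseudocount, all at 95%; counting error is all they cover. A ratio of 1 in size counts as past the threshold. No ratio is given where both libraries have 3 counts or fewer. Named genes were the 4 members, pathway genes past the threshold and the 5 genes closest to Tmem176b and to Il17a; 1 gene that this rule names is not reported here. Alternatives were run, 8 planned and 3 added after the data were seen. Total depth was 39820290 to 100733879 UMIs per library. The scripts were tested on simulated counts. Sequences are RefSeq's on GRCm38.p6, matched by symbol.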

Additional observations from a re-analysis of the deposited data

Results flagged for a closer look

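Differences between groups that pointed in opposite directions were looked for in 48 pairs of log2 ratios and found in 7. None was tested, since each label has 1 library. Between the pairs of libraries, the ratios in alpha-beta T-like cells were 1.90 for Tmem176b and 1.81 for Tmem176a in Combined against CTX, and -0.73 and -0.62 in combod18t against ctxd18t. Between cell classes at day 18, gamma-delta T-like cells gave 1.76 for Tmem176b, 2.01 for Tmem176a and 0.97 for Il17a, whereas alpha-beta T-like cells gave -0.73, -0.62 and -0.76. Between myeloid classes in Combined against CTX, macrophage-like cells gave 0.52 for Tmem176b and 0.59 for Tmem176a, and monocyte-like cells -0.61 and -0.40.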

How the results depend on the processing

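No paired analysis was possible because each label has 1 library. For the Tmem176b ratios in alpha-beta, gamma-delta T-like and monocyte-macrophage-like cells and the Il17a ratios in gamma-delta T-like cells (8 results, 74 values), 63 values stayed within the counting interval, 11 moved outside it and 73 kept their sign. The ratio of 1.90 for Tmem176b in alpha-beta T-like cells, Combined against CTX, became 1.32 with a pseudocount of 10 CPM, 1.20 with cells thinned to 1000 UMIs, 1.63 as the mean of each cell's CPM, 1.47 with per-cell marker gates and 1.42 without clusters L14 and L17. At day 18 its -0.73 became -0.37 with a pseudocount of 10 CPM. For Il17a in gamma-delta T-like cells, thinning gave 3.06 in place of 4.38 for Combined against CTX, a bound from 3 counts since CTX had none left, and 1.53 in place of 0.97 at day 18. For Tmem176b in monocyte-macrophage-like cells, Combined against CTX (-0.48) became -0.41 when thinned and -0.55 with median-of-ratios scaling, and the day 18 value of 0.07 became -0.047 with marker gates. Of the 224 values of the other 24 results, 189 stayed within the interval and 212 kept their sign. Sign changes were of ratios of -0.09 to 0.16 whose intervals span 0, apart from 3 of ratios of 1 or more in size, all for Tmem176a without clusters L14 and L17: 0.92 in alpha-beta T-like cells for CTX against MRX (56 and 21 UMIs), and -0.20 and 0.23 in gamma-delta T-like cells for Combined against CTX and CTX against MRX, these last from 4 or fewer UMIs a library. The cause of these moves was not tested. Leaving out a replicate was not possible with 1 library per label, and depth limits every statement on L17 in CTX (4 cells) and ctxd18t (8 cells).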
